A study of Mus musculus with 4 samples.

Results

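The genes described here are those that place or remove methyl groups on histone lysines and those that form the Polycomb complexes. They were chosen by name as a list of 54 genes. Of these, 52 had a probe set naming 1 gene among the 18193 genes of the series, and 47 reached log2 6, the floor used for expression, on at least 1 array, beside 9385 genes in all. Suv39h1 and Ash1l were not analysed here, and Phf1, Phf19, Cbx2, Cbx7 and Cbx8 lay under the floor on all 4 arrays.

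Mouse bone marrow cells were grown with the macrophage growth factor M-CSF for 5 days. They came from wild-type mice or from mice carrying the Jmjd3-/- genotype, in which the H3K27 demethylase Jmjd3, now named Kdm6b, is disrupted. Cells of each genotype were left unstimulated (LPS at 0 ng/ml) or received the bacterial cell wall component LPS at 100 ng/ml for 4 h, and total RNA of each of the 4 groups was measured on 1 Affymetrix array. The design asks how LPS changes expression and how loss of Jmjd3 alters it. The labels give no strain, age or sex, and neither the deleted part of the gene nor the number of animals behind an array; both genotypes were grown in the same way. Levels are log2 RMA intensities of the brightest probe set of a gene, so that a difference of 1 is 2-fold, and they are compared between arrays, never between genes.

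With 1 array per group, a difference between 2 arrays has no replicate check. A test was possible only for an effect shared by the other factor's states, namely the LPS effect common to both genotypes and the genotype effect common to both states. Both came from an additive limma model over all 9385 genes with 1 residual degree of freedom, with calls made at an adjusted p (Benjamini-Hochberg) below 0.05. "Rose" and "fell" are used only for genes called in this way. Differences of 2-fold or more between 2 arrays are counted as a description.

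Methyl groups on histone H3 mark active or silent chromatin according to the lysine that carries them. Polycomb repressive complex 2 (PRC2) methylates H3K27 through its catalytic subunit Ezh2 or Ezh1, and PRC1 binds this mark and ubiquitinates histone H2A. Demethylases of the JmjC family and of the LSD family remove the marks, and Kdm6a and Kdm6b are those that act on H3K27 trimethylation.

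The probe sets of the targeted gene gave no single direction between the genotypes. On the brightest Kdm6b probe set, wild-type cells gave 10.33 before and 11.23 after LPS, and Jmjd3-/- cells 9.82 and 10.82. The knockout minus wild-type differences were -0.51 and -0.41, and in each genotype the LPS array was the higher. This probe set is of a class that can bind other transcripts. Of 2 dimmer Kdm6b probe sets, 1 read 4.71, 5.22, 5.35 and 6.07, higher in the knockout, and 1 lay under the floor at 3.22, 4.19, 3.22 and 2.91, higher with LPS in wild type alone. The probe sets thus disagreed on genotype, and since the deleted part is not given, none of them checks the labels.

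Markers of several cell types differed by genotype, those of granulocytes and stromal cells the most. All 10 matched macrophage markers (of 12 listed) reached the floor on each array, with summed linear levels between 48423 and 51996; 2 rose and 3 fell with LPS, and 1 rose and 1 fell with genotype. Of 12 granulocyte markers, 10 rose and 1 fell in the knockout, and their summed level was 3490 and 4800 on the wild-type arrays against 38462 and 38767 on the knockout arrays. Ngp, a granule protein, read 3.87 and 4.06 against 11.82 and 11.68. Of 16 stromal markers, 15 rose in the knockout, including the collagen gene Col3a1 (by 6.17) and the hyaluronan synthase gene Has2 (by 6.26), and their summed level was 864 and 1084 on the wild-type arrays against 37568 and 31821. Dendritic cell markers summed to 4382 and 6129 in wild type and 1028 and 1226 in the knockout, where 2 of 3 fell, while Ccr7 rose with LPS. The T, B and NK cell markers summed to 318 and 370 against 120 and 135, and Cd3g and Cd3e fell in the knockout. Markers of mast cells, basophils and eosinophils summed to 631, 1555, 556 and 1957 in the order wild type, wild type with LPS, knockout and knockout with LPS (1 rose and 1 fell with LPS, 1 rose and 3 fell with genotype), and erythroid and megakaryocyte markers to 9360, 6493, 6765 and 5991, with none of 3 called. The part of these cells in any genotype difference given here was not tested, and fewer cells of a type and less RNA per cell cannot be told apart in these samples.

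**Figure D1:**
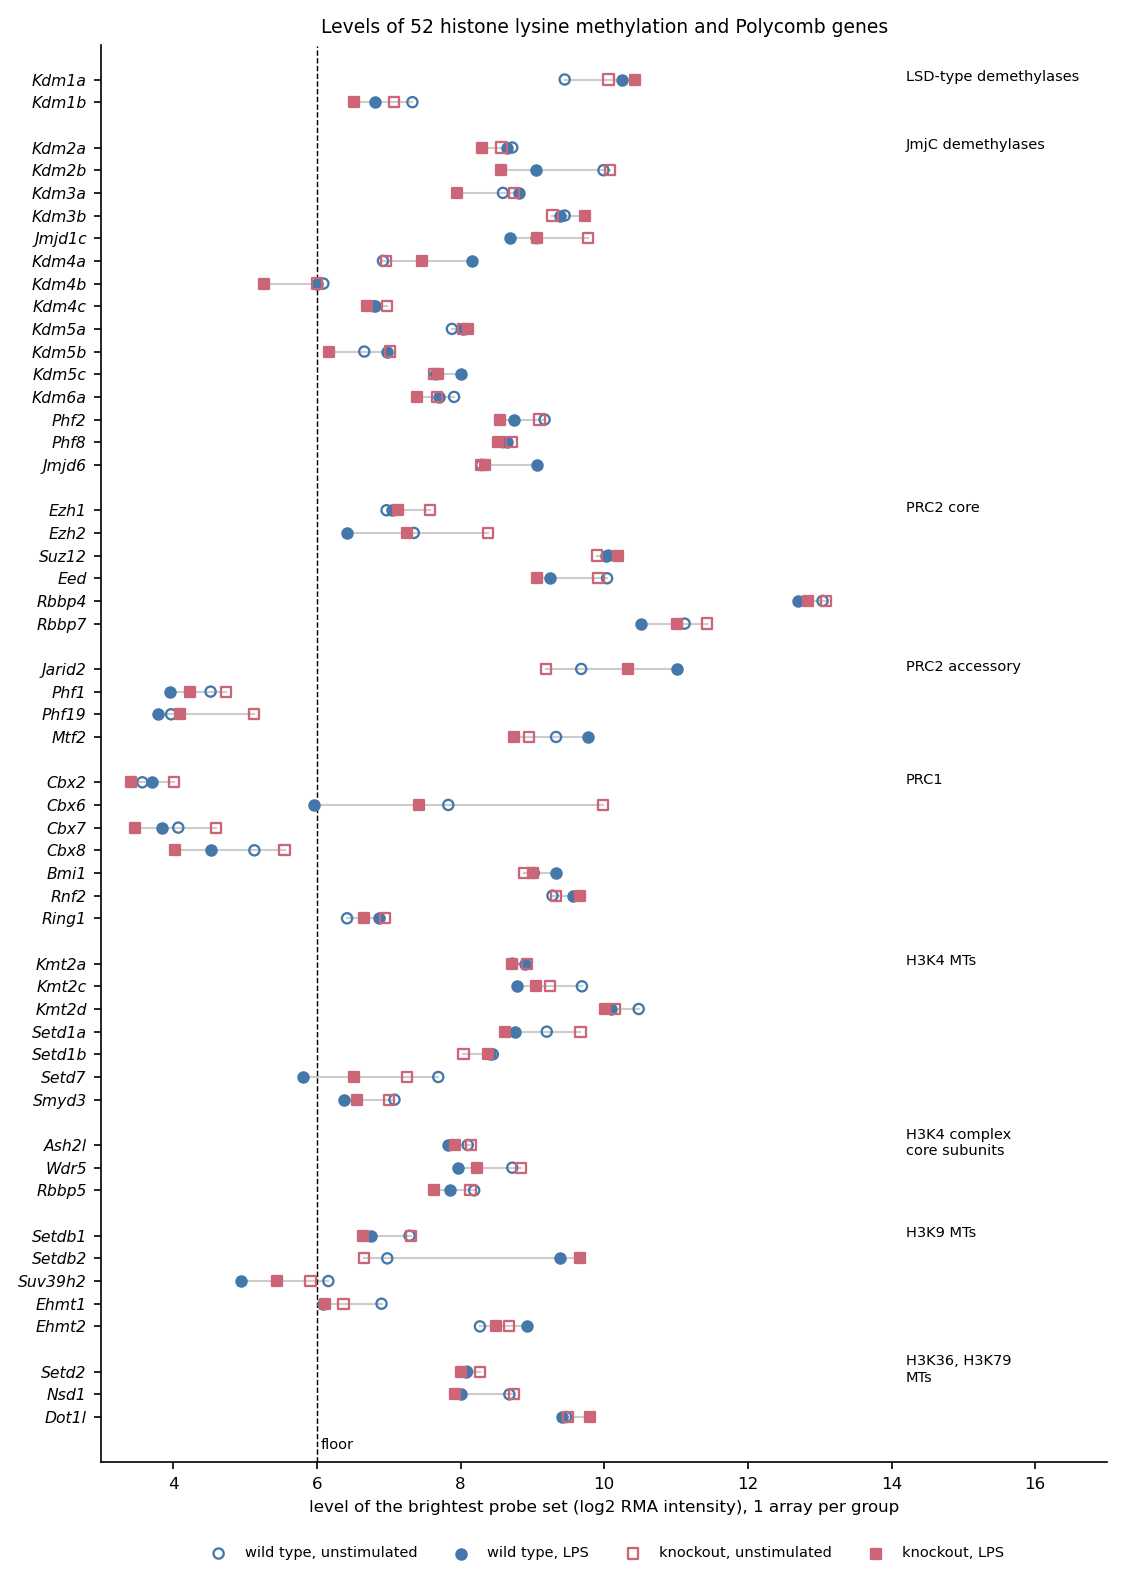
Levels of the 52 measured genes as log2 RMA intensity of the brightest probe set, with 1 point per array, grouped by role (MTs stands for methyltransferases). Cbx6 and Setdb2 spread the most over the 4 arrays, and 5 genes lie left of the dashed floor at log2 6 on each of them.

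Of the 47 genes at or above the floor, 2 rose with LPS (4.26%), against 11.2% of all genes tested, and 7 fell (14.9%), against 18.8%. Jarid2 and Setdb2 rose, and Kdm2b, Ezh2, Eed, Cbx6, Setd7, Wdr5 and Nsd1 fell. The median LPS effect was -0.25 over these genes and -0.22 over all genes, and the median size of the effect was 0.41 against 0.50. At an unadjusted p below 0.05 limma gave 4 genes higher and 14 lower (38.3% in all), against 45.0% of all genes. Cbx6 alone rose in the knockout, 1 of 47 (2.13%) against 6.39% of all genes, and none fell, against 3.12%. At an unadjusted p below 0.05 limma gave 4 genes higher and 2 lower in the knockout (12.8% in all), against 24.4% of all genes. The median genotype effect was -0.01 over these genes and 0.05 over all genes, with median sizes of 0.17 and 0.28. These shares lay under the background throughout.

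**Figure D2:**
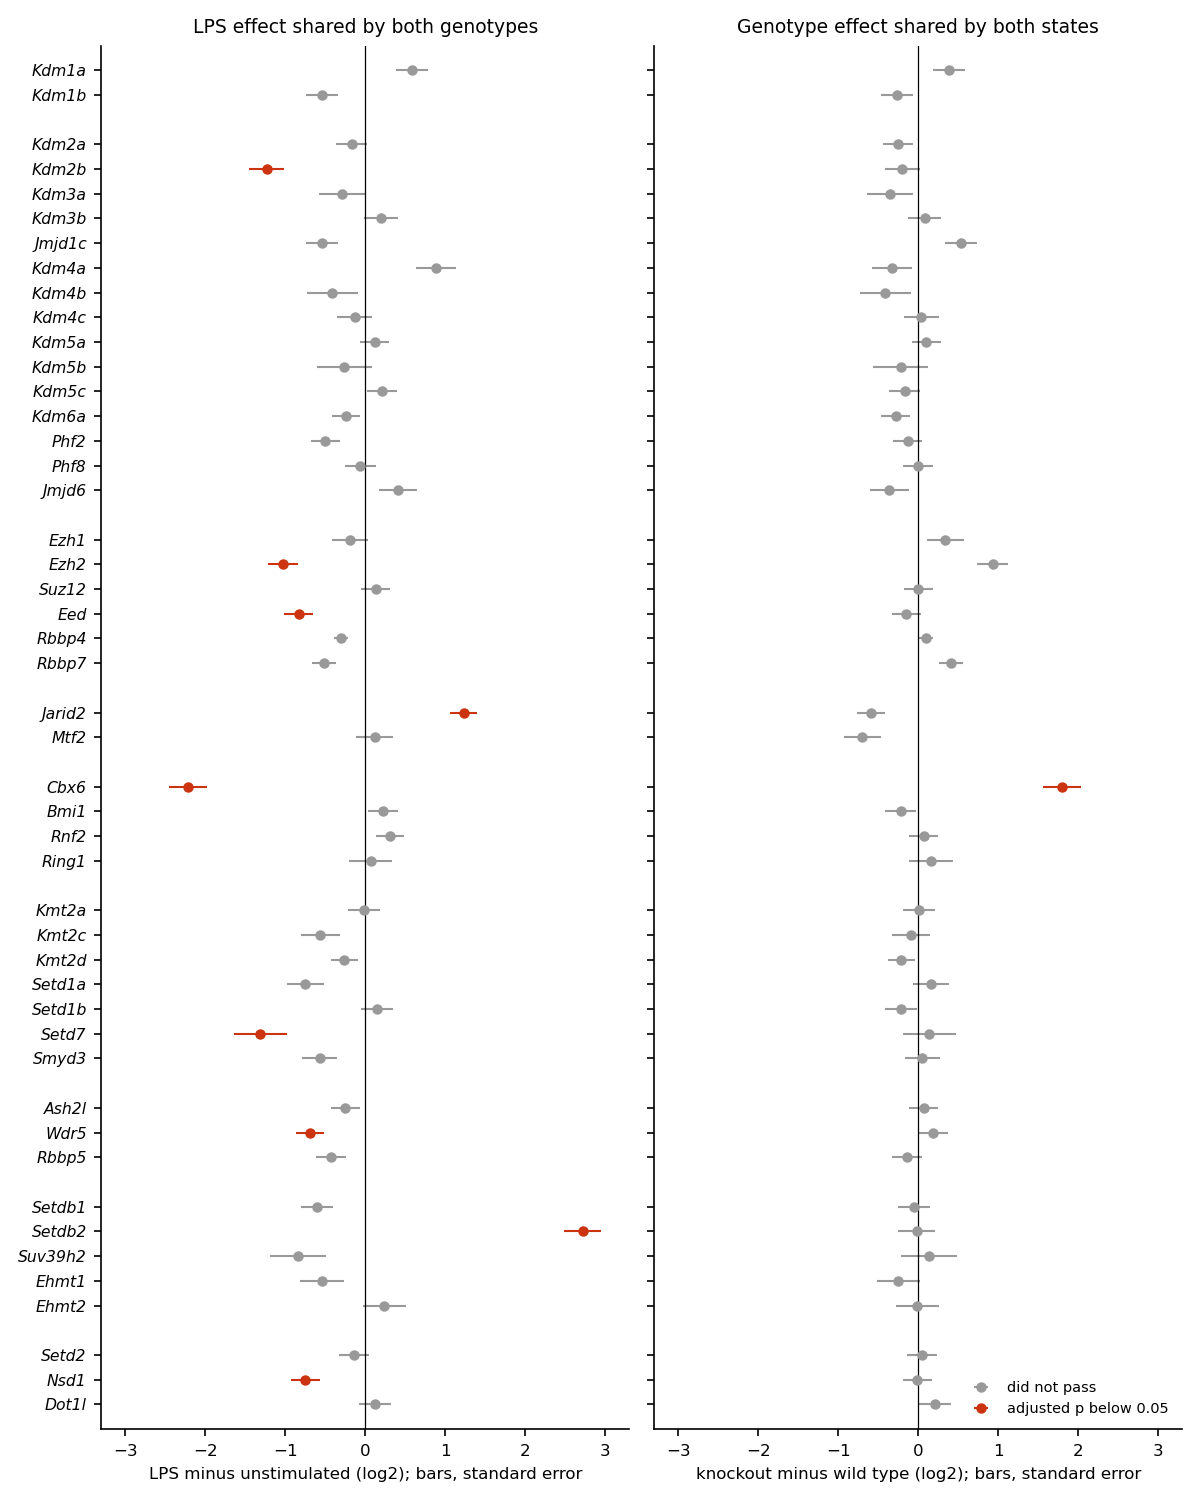
Shared LPS effect (left) and shared genotype effect (right) of the 47 genes, as log2 differences from the additive limma model with bars of 1 standard error; red points had a Benjamini-Hochberg adjusted p below 0.05. Setdb2 lies farthest right for LPS at 2.72, and Cbx6 stands apart at -2.22 for LPS and 1.80 for genotype.

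The promoters of 3 genes are printed because they belong to genes whose LPS effect the results turn on: both PRC2 subunits that fell and the methyltransferase that rose most. Each line gives 280 bases from RefSeq assembly GRCm38.p6, from 250 bases before to 30 bases after the annotated start, all on the minus strand. The Ezh2 window is chr6:47595001-47595280, and its capitals mark a match to the E2F motif TTTGGCGC or TTTCCCGC that begins 3 bases after the start. The Eed window is chr7:89980947-89981226, and its capitals mark 2 matches to the cell cycle element CHR (TTTGAA), on either strand. A match to the interferon response motif GAAANNGAA in the Eed window is left in small letters. The Setdb2 window is chr14:59440851-59441130, and its capitals mark 29 CpG dinucleotides.
Ezh2: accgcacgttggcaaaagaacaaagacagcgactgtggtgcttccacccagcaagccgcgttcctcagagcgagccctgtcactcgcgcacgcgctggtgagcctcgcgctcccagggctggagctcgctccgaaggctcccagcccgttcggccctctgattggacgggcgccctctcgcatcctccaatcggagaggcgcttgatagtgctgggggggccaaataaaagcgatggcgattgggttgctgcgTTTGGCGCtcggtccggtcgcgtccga
Eed: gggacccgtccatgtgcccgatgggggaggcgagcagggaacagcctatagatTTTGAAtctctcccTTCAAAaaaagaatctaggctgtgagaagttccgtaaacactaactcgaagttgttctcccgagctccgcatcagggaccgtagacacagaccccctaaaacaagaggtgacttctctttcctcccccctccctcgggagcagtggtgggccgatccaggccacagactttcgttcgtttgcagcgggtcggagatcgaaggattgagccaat
Setdb2: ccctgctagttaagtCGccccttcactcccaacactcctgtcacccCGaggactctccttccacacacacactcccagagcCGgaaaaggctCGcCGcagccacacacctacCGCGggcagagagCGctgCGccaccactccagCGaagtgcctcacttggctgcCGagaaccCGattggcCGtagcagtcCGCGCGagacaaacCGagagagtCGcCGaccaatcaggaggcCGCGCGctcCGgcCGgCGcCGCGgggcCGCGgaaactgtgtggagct

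In all, 5 motifs were searched on both strands in the 55 windows of 300 bases that belong to 44 of the 54 genes and in all 32841 windows. The E2F motif stood in 3 of the 55 windows (Ezh2, Phf19 and Suz12; 5.45%) and in 1.57% of all windows. CHR stood in 7 windows (12.7%), those of Cbx7, Eed, Jmjd1c, Kdm1b, Mtf2, Suv39h2 and Suz12, against 17.9% of all. The interferon response motif GAAANNGAA stood in 1 window, that of Eed, against 8.56% of all. The NF-kB motif GGANTTTCC stood in none of the 55 and in 1.25% of all, and the AP-1 motif TGANTCA in 4 windows of Kdm3a, Kdm4a and Kdm5c, against 7.81%. The median number of CpG dinucleotides per window was 28 for these genes and 7 for all windows. A match describes letters only, and no binding was measured.

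Within PRC2, the catalytic subunit Ezh2 and the H3K27me3-binding subunit Eed fell with LPS, while Suz12, the scaffold subunit, was not called. Ezh2 read 7.35 in wild type, 6.42 in wild type with LPS, 8.38 in the knockout and 7.25 in the knockout with LPS. LPS gave the lower array in each genotype, and the knockout the higher array in each state. The shared LPS effect was -1.03 (SE 0.19, limma with Benjamini-Hochberg adjusted p = 0.022), which is 2.04-fold lower. The genotype effect of 0.93 (SE 0.19) missed the threshold by limma with Benjamini-Hochberg adjustment (adjusted p = 0.0532). Eed read 10.04 and 9.24 in wild type and 9.92 and 9.06 in the knockout, in the order unstimulated and LPS. Its fall was nearly the same on both pairs of arrays, with a shared effect of -0.83 (SE 0.18, 1.78-fold lower, limma with Benjamini-Hochberg adjusted p = 0.0289), and the genotypes differed by -0.15. The call for Eed was lost when its probe sets were averaged (limma with Benjamini-Hochberg adjusted p = 0.159). The other Eed probe set lay under the floor on each array, at 3.15 and 3.14 in wild type and 3.24 and 3.45 in the knockout.

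The other core subunits moved less. Suz12 read 10.06, 10.03, 9.90 and 10.19 in the same order, and its 5 probe sets at or above the floor gave LPS effects between 0.06 and 0.32. Ezh1, the alternative catalytic subunit, read 6.97 and 7.04 in wild type and 7.57 and 7.13 in the knockout, with an LPS effect of -0.19 and a genotype effect of 0.34, neither called. The histone-binding subunits, which also serve other chromatin complexes, had LPS effects short of the threshold, although Rbbp7 passed it in 3 of 8 alternatives and Rbbp4 in 1. Rbbp7 read 11.12 and 10.51 in wild type and 11.43 and 11.01 in the knockout (LPS effect -0.52, SE 0.15, limma with Benjamini-Hochberg adjusted p = 0.0567). Rbbp4 read 13.04 and 12.70 in wild type and 13.09 and 12.84 in the knockout (LPS effect -0.30, SE 0.09, limma with Benjamini-Hochberg adjusted p = 0.0574). Its probe sets disagreed: the second brightest read 8.98, 6.97, 6.37 and 8.36, so that LPS was lower in wild type and higher in the knockout. Of the 6 core subunits 2 fell and none rose, with a median LPS effect of -0.41.

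Of the 4 PRC2 accessory genes, Jarid2 rose with LPS, Mtf2 was not called, and Phf1 and Phf19 lay under the floor. Jarid2, a JmjC-domain protein that helps to bring PRC2 to chromatin, read 9.68 in wild type, 11.01 with LPS, 9.19 in the knockout and 10.33 with LPS. Both LPS arrays lay above both unstimulated arrays, and the knockout arrays were lower in each state (-0.50 and -0.68). The LPS effect was 1.23 (SE 0.17, 2.35-fold higher, limma with Benjamini-Hochberg adjusted p = 0.012), and the 3 Jarid2 probe sets gave 1.23 to 1.96. The genotype effect of -0.59 (SE 0.17) was not called (limma with Benjamini-Hochberg adjusted p = 0.121). Mtf2, a Polycomb-like subunit that binds DNA rich in CpG, read 9.33 and 9.77 in wild type and 8.95 and 8.75 in the knockout. The LPS array was the higher in wild type and the lower in the knockout, and with LPS the genotypes differed by -1.02. Each of its 5 probe sets at or above the floor had this pattern, with LPS differences of 0.44 to 1.17 in wild type and -0.20 to -0.02 in the knockout. The shared genotype effect of -0.70 (SE 0.23) was not called (limma with Benjamini-Hochberg adjusted p = 0.155), and the difference between the LPS responses, -0.64, has no test. A sixth Mtf2 probe set, under the floor, did not have the pattern.

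In PRC1, Cbx6, a chromodomain subunit, had the widest spread. It read 7.83 in wild type, 5.96 in wild type with LPS, 9.98 in the knockout and 7.42 in the knockout with LPS. The LPS array was lower in each genotype (differences of -1.87 and -2.56), and the knockout array higher in each state, by 2.15 and 1.46. Cbx6 fell with LPS by 2.22 on the log2 scale (SE 0.24, 4.65-fold, limma with Benjamini-Hochberg adjusted p = 0.00739) and rose in the knockout by 1.80 (SE 0.24, 3.49-fold, limma with Benjamini-Hochberg adjusted p = 0.0162). These values come from a probe set of the less specific _s_at class. A second Cbx6 probe set lay under the floor at 3.79, 3.92, 5.82 and 4.25, with no LPS fall in wild type. Without the _s_at class Cbx6 was therefore not tested, and averaging the probe sets ended the genotype call (limma with Benjamini-Hochberg adjusted p = 0.0965). The summed stromal and granulocyte marker levels given above were also higher on both knockout arrays, and their part in the Cbx6 values was not tested. The other PRC1 genes at or above the floor were not called: Bmi1 read between 8.89 and 9.33, the E3 ligase gene Rnf2 between 9.28 and 9.66 and its relative Ring1 between 6.42 and 6.95.

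**Figure D3:**
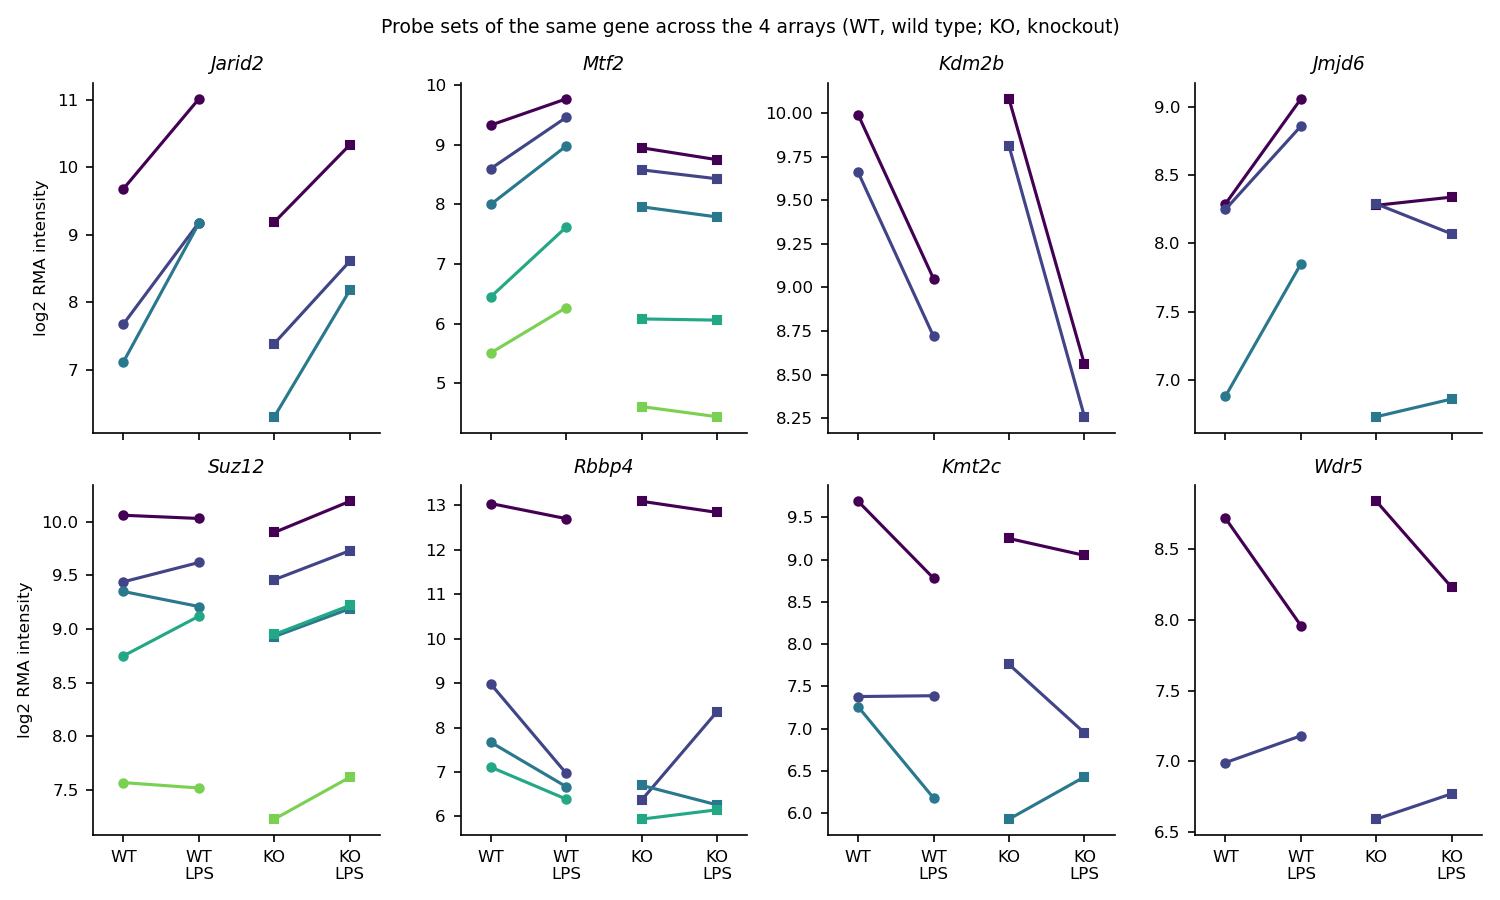
Level (log2 RMA intensity) of the probe sets at or above the floor of 8 genes on the 4 arrays, with 1 colour per probe set, lines joining the arrays of a genotype and vertical axes that differ between panels. All 3 Jarid2 probe sets are higher with LPS and the 5 Mtf2 probe sets share 1 shape, while those of Rbbp4, Kmt2c and Wdr5 differ in direction.

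Among the demethylases, Kdm2b was the only called gene of the 15 in the JmjC family and the 2 in the LSD family at or above the floor. Kdm2b, an H3K36 demethylase that binds unmethylated CpG and belongs to a variant PRC1, read 9.99 and 9.05 in wild type and 10.08 and 8.56 in the knockout. Both LPS arrays were lower than both unstimulated arrays, with a shared effect of -1.23 (SE 0.22, 2.35-fold lower, limma with Benjamini-Hochberg adjusted p = 0.0197), and its 2 probe sets gave -1.25 and -1.23. Kdm6a, the close relative of Kdm6b on the X chromosome, read 7.91, 7.70, 7.67 and 7.39. Its knockout arrays were lower in each state (-0.24 and -0.31), with a genotype effect of -0.28 that was not called (limma with Benjamini-Hochberg adjusted p = 0.433). The 3 Kdm6a probe sets at or above the floor gave genotype effects of -0.30 to -0.22, but LPS effects from -0.84 to 0.22. On 1 of them the knockout was the higher with LPS, by 0.14. Kdm1a, the H3K4 demethylase LSD1, read 9.45 and 10.25 in wild type and 10.06 and 10.43 in the knockout, and its LPS effect of 0.58 (SE 0.20) was not called (limma with Benjamini-Hochberg adjusted p = 0.0822). Kdm1b, its relative, read between 6.52 and 7.33, with both LPS arrays the lower.

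Several JmjC genes had a higher LPS difference in wild type than in the knockout. Kdm4a, a demethylase of H3K9 and H3K36, read 6.92 and 8.16 in wild type and 6.96 and 7.47 in the knockout, LPS differences of 1.25 and 0.51 (shared effect 0.88, SE 0.25, limma with Benjamini-Hochberg adjusted p = 0.0575). Jmjd6, a JmjC hydroxylase, read 8.29 and 9.06 against 8.28 and 8.34. Its LPS array stood apart in wild type and not in the knockout on each of 3 probe sets, with response differences of -0.84 to -0.71. Kdm3a, an H3K9 demethylase, read 8.59 and 8.81 in wild type and 8.74 and 7.95 in the knockout. Kdm5b, an H3K4 demethylase, read 6.66 and 6.98 in wild type and 7.02 and 6.17 in the knockout. For both, the LPS difference was above 0 in wild type and below 0 in the knockout, and the responses differed by -1.01 and -1.17 with no test. With LPS, 11 of 14 JmjC genes at or above the floor on either array were lower in the knockout, against 45.9% of all genes; unstimulated it was 7 of 15, against 43.2%. This count was chosen after the values were seen.

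None of the remaining JmjC genes was called. Jmjd1c, related to the H3K9 demethylases, read 9.06 and 8.69 in wild type and 9.78 and 9.07 in the knockout. On this probe set the knockout arrays were higher in each state, by 0.71 and 0.38 (genotype effect 0.54, SE 0.20, limma with Benjamini-Hochberg adjusted p = 0.185). The 3 Jmjd1c probe sets at or above the floor disagreed, with genotype effects from -0.26 to 0.54. Phf2, which acts on H3K9, read 9.17 and 8.74 in wild type and 9.10 and 8.55 in the knockout. For Jmjd1c and Phf2 the LPS array was the lower in both genotypes, with effects of -0.54 and -0.50 that were not called. On their brightest probe sets, Kdm2a, Kdm3b, Kdm4c, Kdm5a, Kdm5c and Phf8 differed by at most 0.45 between their highest and lowest array. The 4 Kdm5c probe sets at or above the floor disagreed, with LPS effects from -0.76 to 0.46. Kdm4b lay close to the floor, between 5.27 and 6.09.

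**Figure D4:**
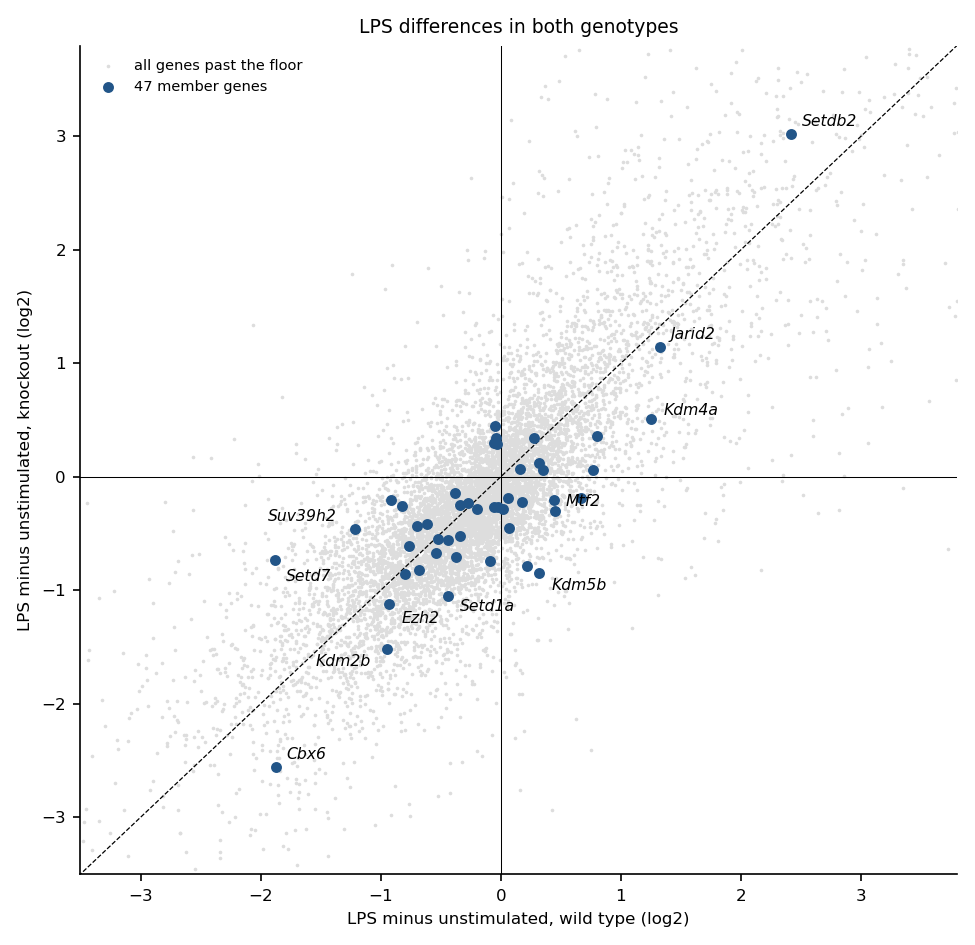
LPS difference in wild-type cells (horizontal axis) and in Jmjd3-/- cells (vertical axis), log2, for 47 genes over all 9385 genes (grey), with the line of equal responses and some grey points outside the axes; each value is a difference between 2 arrays with no test. Kdm3a and Kdm5b lie under the line by 1.01 and 1.17, and Setd7 above it by 1.15.

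Of the H3K4 methyltransferases, Setd7 fell with LPS. Setd7, which also methylates proteins other than histones, read 7.69 and 5.81 in wild type and 7.26 and 6.52 in the knockout. The LPS array was lower in each genotype (-1.88 and -0.73), and the shared effect was -1.31 (SE 0.33, 2.48-fold lower, limma with Benjamini-Hochberg adjusted p = 0.0434). The LPS array in wild type lay under the floor, and the call was lost in 3 of 6 alternatives (limma with Benjamini-Hochberg adjusted p from 0.0398 to 0.127 over the 6). Setd1a, the catalytic subunit of a COMPASS complex, read 9.20 and 8.76 in wild type and 9.67 and 8.62 in the knockout, with an effect of -0.75 that was not called (SE 0.23, limma with Benjamini-Hochberg adjusted p = 0.0663). Kmt2c, an enzyme of enhancer H3K4 monomethylation, read 9.69, 8.78, 9.25 and 9.05, and its 3 probe sets disagreed, with response differences from -0.82 to 1.58. Kmt2d, its partner enzyme, read 10.48, 10.10, 10.15 and 10.01, and Smyd3 between 6.38 and 7.08; in each, the LPS arrays were the lower in both genotypes without a call. Kmt2a and Setd1b differed by 0.22 and 0.41 between their highest and lowest array, but a second Kmt2a probe set read 8.77, 8.65, 8.17 and 8.77. A second Setd1b probe set read 8.14, 7.67, 7.39 and 7.63, with an LPS effect of -0.12 against 0.15 on the brightest. Of these 7 genes, 6 were lower with LPS in wild type, against 62.3% of all genes.

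The genes described here include 3 core subunits of the COMPASS complexes, which hold the Kmt2 and Setd1 enzymes. On their brightest probe sets these 3 were lower with LPS in both genotypes, and 1 was called. Wdr5, which binds the histone H3 tail, read 8.72 and 7.96 in wild type and 8.84 and 8.23 in the knockout, an effect of -0.69 (SE 0.18, 1.61-fold lower, limma with Benjamini-Hochberg adjusted p = 0.0492). A second Wdr5 probe set read 6.99, 7.18, 6.59 and 6.77, higher with LPS by 0.18. The Wdr5 call held in 2 of 8 alternatives and was lost when its probe sets were averaged (effect -0.25, limma with Benjamini-Hochberg adjusted p = 0.267). Ash2l read 8.10 and 7.83 in wild type and 8.15 and 7.92 in the knockout, and Rbbp5 8.19 and 7.86 in wild type and 8.14 and 7.63 in the knockout. The median effect of the 3 was -0.43.

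Among the H3K9 methyltransferases, Setdb2 rose with LPS and had the largest effect of the 47 genes. It read 6.98 and 9.39 in wild type and 6.66 and 9.67 in the knockout. LPS raised the level 6.58-fold (log2 effect 2.72, SE 0.23, limma with Benjamini-Hochberg adjusted p = 0.00471), with differences of 2.42 (wild type) and 3.02 (knockout) and a genotype effect of -0.02. The 4 other members of this group at or above the floor were not called. Suv39h2, of heterochromatin, read 6.16 and 4.94 in wild type and 5.91 and 5.45 in the knockout, with 3 of its 4 values under the floor (effect -0.84, SE 0.35, limma with Benjamini-Hochberg adjusted p = 0.133). Setdb1, the paralog of Setdb2, read 7.29 and 6.76 in wild type and 7.31 and 6.64 in the knockout, lower with LPS in both where Setdb2 was higher. The euchromatic enzyme genes Ehmt1 and Ehmt2, whose products pair with each other, read 6.90, 6.08, 6.37 and 6.11, and 8.27, 8.93, 8.68 and 8.49. Ehmt2 was higher with LPS in wild type and lower in the knockout.

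Of the H3K36 and H3K79 methyltransferases, Nsd1 fell with LPS. Nsd1, which dimethylates H3K36, read 8.68 in wild-type and 8.74 in knockout cells without LPS, and the LPS arrays differed from these by -0.68 and -0.82, an effect of -0.75 (SE 0.18, 1.68-fold lower, limma with Benjamini-Hochberg adjusted p = 0.0401). The call was lost in 4 of 8 alternatives, the mean over probe sets among them (limma with Benjamini-Hochberg adjusted p from 0.0356 to 0.104 over the 8). Setd2, which trimethylates the same lysine, had 0.27 between its highest and lowest array, and the H3K79 enzyme gene Dot1l between 9.41 and 9.80.

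Counts of 2-fold differences between single arrays also lay under the background. With LPS, 3 of 47 genes were at least 2-fold higher in wild type (Kdm4a, Jarid2 and Setdb2; background 9.86%) and 3 lower (Cbx6, Setd7 and Suv39h2; background 14.3%). In the knockout 2 of 46 were higher (background 11.0%) and 4 lower (background 15.5%), namely Jarid2 and Setdb2, and Kdm2b, Ezh2, Cbx6 and Setd1a. Between the genotypes, unstimulated, Ezh2 and Cbx6 were at least 2-fold higher in the knockout (2 of 47, background 9.54%) and none lower (background 5.74%). With LPS, Cbx6 was higher (1 of 45, background 9.76%) and Mtf2 lower (1 of 45, background 5.65%). The LPS response differed by 2-fold or more between the genotypes for 3 of 47 genes: the LPS difference was higher in the knockout for Setd7 (background 5.19%) and lower for Kdm3a and Kdm5b (background 4.73%). The LPS differences had opposite signs in the genotypes for 13 of 47 genes (27.7%), against 18.3% of all genes, and the genotype differences had opposite signs in the 2 states for 21 (44.7%), against 30.7%. The shared effects of these genes were smaller than those of all genes, with median sizes of 0.41 against 0.50 for LPS and 0.17 against 0.28 for genotype. The part of small differences in the shares of opposite sign was not tested. Probe sets of the same gene differed from each other by a median SD of 0.18 to 0.24 over 3886 genes for a difference between 2 arrays. Of the 22 genes with several probe sets at or above the floor, all probe sets shared the sign of the LPS effect in 17, of the genotype effect in 13 and of the response difference in 14.

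Other genes of the same pathways, from lists made for this purpose, included larger effects. The counts stand beside 11.2% of all genes that rose and 18.8% that fell with LPS. For genotype the shares of all genes were 6.39% and 3.12%. Of 16 further Polycomb genes, 3 rose and 4 fell with LPS (median -0.04), and none was called for genotype. Pcgf5, a subunit of variant PRC1, read 6.97 and 9.94 in wild type and 6.88 and 9.98 in the knockout, a rise of 3.03 (SE 0.18, limma with Benjamini-Hochberg adjusted p = 0.00268). Aebp2, which joins the same form of PRC2 as Jarid2, rose by 1.38 and the PRC1 gene Phc2 by 1.22, while Asxl1, a cofactor of the H2A deubiquitinase Bap1, fell by 2.28. Of 20 further genes of methyltransferases and of subunits of their complexes, 1 rose and 5 fell with LPS (median -0.24) and none was called for genotype. The H3K36 enzyme gene Nsd3 rose by 1.13; the H4K20 enzyme gene Kmt5c fell by 1.77, and Nsd2 and Paxip1, a subunit of Kmt2c and Kmt2d complexes, each fell by 0.88. Of 6 further genes of demethylases and of subunits of their complexes, Riox2 rose by 1.27 and Riox1 fell by 1.09 with LPS, both JmjC hydroxylases. Kdm7a, a demethylase of H3K9 and H3K27, read 11.09 and 10.87 in wild type and 10.02 and 9.79 in the knockout, and fell with genotype by 1.07 (SE 0.16, limma with Benjamini-Hochberg adjusted p = 0.0221).

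Most cell cycle genes fell with LPS. Of the 47 genes described here 7 fell (14.9%), a smaller share than the 18.8% of all genes. Of 31 cell cycle genes at or above the floor, 25 fell and none rose with LPS (median -1.47), and 8 rose and none fell in the knockout (median 0.81). Their summed linear level was 23880 in wild type, 11449 in wild type with LPS, 31753 in the knockout and 17063 in the knockout with LPS. Among the 47 genes, the 4 arrays stood in the same order for Ezh2, Cbx6, Rbbp7, Rbbp4, Wdr5 and Ash2l. The LPS effect was -2.40 for the kinesin gene Kif20a, -2.38 for the thymidine kinase gene Tk1, -2.36 for the centromeric histone gene Cenpa and -2.20 for the cyclin gene Ccna2. In the knockout Kif11 rose by 1.72, Tk1 by 1.65, Ccnb2 by 1.56 and Birc5 by 1.51. Of those 7, Cbx6 also rose in the knockout and Ezh2 was higher there without a call, while the genotype effects of Eed and Kdm2b were -0.15 and -0.20. The part of proliferation in these values was not tested.

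**Figure D5:**
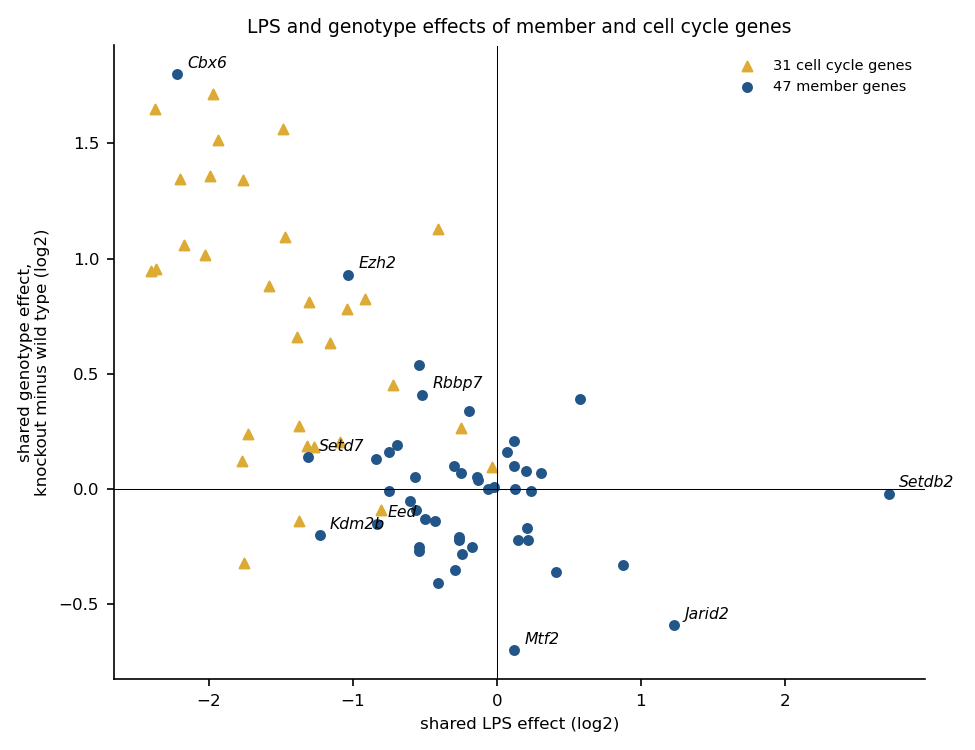
Shared LPS effect (horizontal axis) and shared genotype effect (vertical axis), log2, of the 47 genes and of the 31 cell cycle genes. Most cell cycle genes lie in the upper left, where Ezh2 (-1.03 and 0.93) and Cbx6 (-2.22 and 1.80) also lie. Others of the 47 genes, such as Rbbp7 (-0.52 and 0.41), lie there with smaller genotype effects.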

How the data were processed

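The authors deposited intensities per probe set on the log2 scale, computed with RMA per the submitters' processing notes, which give no version or settings. Array medians lay between 4.15 and 4.24, and arrays give no counts, so that their number, 4, limits the precision. Of 45101 probe sets, 64 were controls and 35890 were in the annotation table; 932 named several genes and were left out. Of the 34945 that named 1 gene, 34741 were given current symbols through RefSeq GRCm38.p6 by gene identifier. Each of 18193 genes took its probe set with the highest mean.

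The 9385 genes at log2 6 or more on an array were tested with limma 3.58.1 (R 4.3.3, genotype plus LPS, intensity trend, 1 residual degree of freedom) and Benjamini-Hochberg adjustment. The code was also run on simulated data built from the means and spreads of these arrays, with results not given here. Each group had 1 array and nothing says that samples are separate animals or cultures, so p-values measure no spread between replicates. The residual of a gene is the difference between its LPS responses in the genotypes, which limma moderates over all genes. A gene with unlike responses therefore has that difference counted as error, and a missing call does not show that it was unchanged. Differences of 2-fold or more between arrays counted genes at the floor on the higher array. The members and lists were chosen with earlier results of these data known. Named in full by rule were genes called, genes 2-fold apart between 2 arrays, the PRC2 core, Jarid2 and Kdm6a, and up to 4 called genes of each other list (further Polycomb, methyltransferase and demethylase genes, histone acetylation, cell cycle, cell type markers); the other genes were added for completeness. Alternatives were another floor (none, or log2 8), the mean over probe sets, no probe sets of the less specific _s_at and _x_at classes, quantile normalization, 64 added on the linear scale, no trend and no second factor.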

Additional observations from a re-analysis of the deposited data

Results flagged for a closer look

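Opposite directions in the 2 genotypes or states picked out 8 genes for which both differences were larger than the median SD between probe sets of a gene. None of these contrasts was tested, and each rests on single arrays. Kdm5b was higher with LPS in wild type (0.32) and lower in the knockout (-0.85), and its genotype difference was 0.36 unstimulated and -0.81 with LPS, so the responses differed by -1.17. Ring1 had the same pattern, with LPS differences of 0.45 and -0.30, genotype differences of 0.53 and -0.22, and responses that differed by -0.75.

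For 6 more genes the genotype difference had opposite signs in the unstimulated and the LPS state. It went from -0.44 to 0.71 for Setd7 (responses differing by 1.15), from -0.25 to 0.50 for Suv39h2 (0.75), from -0.45 to 0.26 for Kmt2c (0.71) and from -0.32 to 0.28 for Setdb2 (0.60). It went from 0.41 to -0.44 for Ehmt2 (-0.85) and from 0.22 to -0.19 for Kmt2a (-0.40). Other probe sets went the opposite way for Kmt2a (from -0.60 to 0.12, responses differing by 0.72) and Kmt2c (from 0.38 to -0.44, -0.82), so neither change of sign holds across probe sets; a second Kdm5b probe set went the same way (from 0.56 to -0.41, -0.97).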

How the results depend on the processing

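Among the 8 alternatives, Setdb2 was called for LPS in 8 (limma with Benjamini-Hochberg adjusted p from 0.0014 to 0.0356). Jarid2, Kdm2b and Ezh2 were called in 7, Eed in 6, Nsd1 in 4 and Wdr5 in 2. Of the alternatives in which they could be tested, Cbx6 was called in 6 of 7 and Setd7 in 3 of 6. Setdb2 and Ezh2 have 1 probe set each, so the alternatives that change the choice of probe sets could not alter their effects. Calls were gained for Rbbp7 in 3 of 8 alternatives (limma with Benjamini-Hochberg adjusted p = 0.0462 with the mean over probe sets, 0.0364 without the less specific ones, 0.0347 after quantile normalization), and after quantile normalization for Rbbp4 (0.0421) and Kdm4a (0.0289). The number of genes that fell with LPS, 7, became 4 with no floor, with the mean over probe sets or without the intensity trend, and 0 without the genotype factor, where 1 in place of 2 rose. The number that rose in the knockout, 1, became 0 with the mean over probe sets, without the less specific probe sets or without the LPS factor. Without the less specific probe sets, Cbx6 lay under the floor and was not tested. After quantile normalization the number became 2, where Ezh2 was added at 0.88 (limma with Benjamini-Hochberg adjusted p = 0.0499).

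Of the 2-fold counts, that of genes lower with LPS in wild type, 3, became 0 at a floor of log2 8 and 1 with the mean over probe sets. With 64 added, the 4 lower with LPS in the knockout became 2 and the 2 higher in the unstimulated knockout became 1. None lower in the unstimulated knockout became 1 with the mean. With LPS, the 1 higher in the knockout became 0 at floor 8, with the mean and with 64 added, and the 1 lower became 0 with 64 added. For the response difference, whose alternatives were chosen after seeing the data, the 1 higher became 0 at floor 8 and with 64 added and 2 without the less specific probe sets, and the 2 lower became 1, 0 and 1 in the same settings. Genotype effects that changed sign, none called, were those of Suz12 (-0.08), Eed (0.03), Rbbp4 (-0.48), Setd1a (-0.05) and Wdr5 (-0.11) with the mean, Rbbp4 (-0.61) without the less specific probe sets and Setdb2 (0.03) with 64 added. The causes were not tested.

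Over all genes, 1054 rose and 1769 fell with LPS and 600 rose and 293 fell with genotype; these became 183, 84, 100 and 11 without the other factor, 859, 1166, 298 and 163 at floor 8, and 896, 1250, 341 and 189 with the mean. No paired analysis was possible because each group had 1 array and the labels give no replicate numbers; for the same reason no array could be left out of the tests. Low signal limits Kdm4b, Setd7, Suv39h2 and Cbx6, which read under log2 6 on an array.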

Other observations

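Histone acetylation genes, which share chromatin with the methylation genes, were also measured. Of 16 at or above the floor, 3 fell and none rose with LPS (median -0.07), against 18.8% and 11.2% of all genes. None was called for genotype (median 0.11). The class IIa deacetylase genes Hdac4 and Hdac5 fell by 2.23 and 2.18 on the log2 scale, and the acetyltransferase gene Kat6b fell by 1.53 (limma with Benjamini-Hochberg adjusted p = 0.0075, 0.0153 and 0.0135).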
